A study of Mus musculus with 16 samples.

Results

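The genes described here are the replication-dependent histone genes, taken as every row of the deposited count table that is annotated as protein coding and whose name begins with Hist1h, Hist2h, Hist3h or Hist4h. There were 67 of them among 54532 genes in the table, and 29 of the 67 passed the filter on low counts that left 18777 genes for testing. RNA was sequenced after poly-A capture in 16 libraries from tumours of C57BL/6 mice. The tumours grew in the wall of the descending colon from MC38 cells, a mouse colon carcinoma line, in the versions labelled MSI and CIN, abbreviations in general use for microsatellite instability and chromosomal instability. On days 1, 6 and 12 every mouse received bone marrow derived dendritic cells by intraperitoneal injection. These cells had been exposed for 30 minutes, with a lipid transfection reagent, to 2 µg of DNA labelled MSI or CIN, either as free cyDNA or as micronuclei, chromosome pieces in a small envelope of their own. The tumours were collected on day 15. MSI tumours from mice given dendritic cells with MSI free DNA, CIN free DNA, MSI micronuclei or CIN micronuclei made 4 groups, and CIN tumours with the same 4 kinds of DNA made another 4. Each group had 2 libraries, numbered 1 and 2 in the titles. All groups shared the strain, the site, the parent cell line and the transfected dendritic cells, and no group without stimulated dendritic cells was analysed here. Per the series design text, RNA of 3 biological replicates was pooled in equal amounts. The labels do not say whether libraries 1 and 2 came from separate pools, and p-values here reflect the spread from library to library, which may be technical.

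Replication-dependent histone genes encode the core histones H2A, H2B, H3 and H4 and the linker histone H1, which package newly made DNA. Most lie in clusters, lack introns and are transcribed in S phase. Their mRNAs are the one known class in animal cells that normally ends without a poly-A tail: a short stem-loop, bound by the stem-loop binding protein Slbp, marks the 3′ end instead, and the mRNA is degraded when replication stops. Some of these genes also give longer, polyadenylated transcripts, known above all from cells that have left the cell cycle. A poly-T capture therefore sees mainly such transcripts, plus whatever RNA without a tail is carried along.

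The 3′ ends in the GENCODE M21 transcript models (GRCm38) are shown first, because poly-T beads hold an mRNA by its tail. The 16-base stem-loop is in capitals, with 7 bases on either side. Hist1h1c encodes a linker histone, and the whole stretch shown lies at chr13:23739505-23739534 on the plus strand. Hist1h4i encodes histone H4, and the whole stretch shown lies at chr13:22040959-22040988 on the minus strand.
Hist1h1c: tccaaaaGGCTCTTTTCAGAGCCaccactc
Hist1h4i: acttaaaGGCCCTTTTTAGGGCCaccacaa

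A stem-loop of this form was found in the longest coding transcript of 45 of the 67 genes, against 63 of all 21901 protein-coding genes in the annotation (0.288%). The core in Hist1h1c was the commonest and occurred in 25 members, while the core in Hist1h4i occurred in that gene and in Hist2h4. In 23 of the 45 the annotated transcript continued for more than 100 bases past the stem-loop. The model of Hist1h1c ran on for 840 bases and that of Hist1h4i for 330 bases. A poly-A signal, AATAAA or ATTAAA on the transcript strand, stood in the last 50 bases of 17 of the 67 members (25.4%), against 72.2% of all protein-coding genes. The signals of 3 of the 4 most abundant members are shown in capitals. The whole stretches shown lie at chr13:23740330-23740359 on the plus strand for Hist1h1c and at chr13:22040639-22040668 on the minus strand for Hist1h4i. That of Hist2h2be, an H2B gene, lies at chr3:96223705-96223734 on the plus strand.
Hist1h1c: gtgtatgcttctAATAAAaagcgtttagtt
Hist1h4i: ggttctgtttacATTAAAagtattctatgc
Hist2h2be: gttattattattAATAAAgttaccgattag

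Hist2h2be had no match to the stem-loop searched for, and its single exon ends 16 bases after the signal. Hist1h2bc, another H2B gene, has a spliced model whose second exon lies at chr13:23692176-23692908. This spliced transcript holds neither the stem-loop nor a signal in its last 50 bases. A match or its absence describes these models and says nothing about which 3′ end was used in the tumours.

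Signal on the members was concentrated in a handful of genes. All 16 libraries together held 53764 counts on the 67 genes, and 4 genes carried 88.2% of them. Hist1h1c alone had 30074 counts and a mean of 82.2 FPKM (fragments per exon length and library size, from the authors' table) over the 16 libraries. Hist1h2bc followed with 31.0 FPKM, Hist1h4i with 25.2 FPKM and Hist2h2be with 7.34 FPKM. Hist1h1c lies at chr13:23738808-23740367, Hist1h2bc at chr13:23684199-23692908, Hist1h4i at chr13:22040636-22041362 and Hist2h2be at chr3:96221119-96223738, and Hist1h2bc is the one with an intron. FPKM is per length of the annotated model, so these levels can be set beside each other only as far as the models match the transcripts made. Hist1h4i, with 4372 counts over 727 bases of exon, therefore stood closer to Hist1h2bc, with 8400 counts over 1156 bases, than to Hist2h2be, with 4588 counts over 2620 bases.

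The next 6 members by level were far lower. Hist1h4k averaged 2.93 FPKM, Hist1h2bg 2.36 FPKM, Hist1h4h 1.76 FPKM, Hist3h2a 1.33 FPKM, Hist1h2bj 1.26 FPKM and Hist1h3c 1.23 FPKM. This order rests on the lengths of the models, such as 312 bases for Hist1h4k and 7425 bases for Hist1h1d, which averaged 0.381 FPKM. Over all 16 libraries together, 43 of the 67 members had fewer than 100 counts. By histone class, the 6 H1 genes held 57.9% of the members' counts, the 18 H2B genes 27.1%, the 13 H4 genes 10.6%, the 18 H2A genes 2.43% and the 12 H3 genes 2.01%. Each of H1, H2B and H4 owed its share to 1 or 2 of the leading genes, and neither H2A nor H3 had one.

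**Figure D1:**
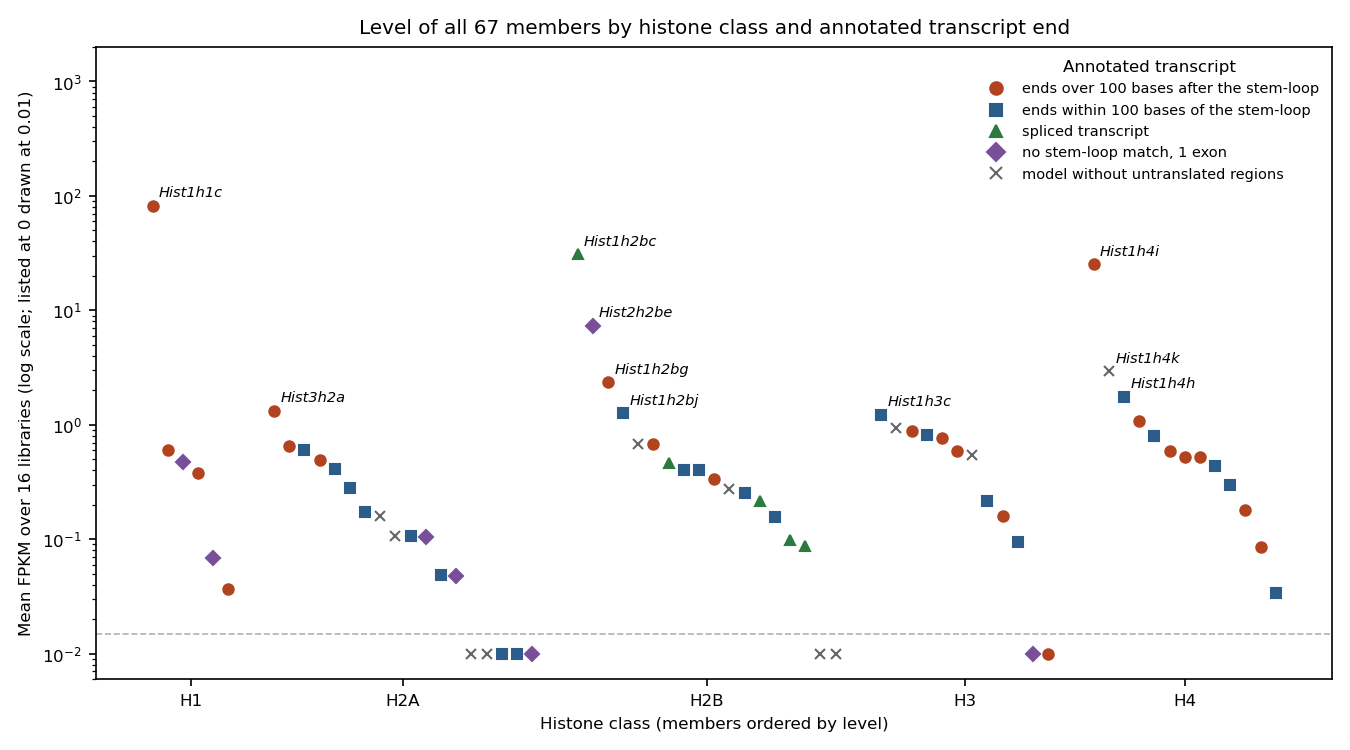
Mean FPKM of each of the 67 members over 16 libraries (log scale, y axis), grouped by histone class and ordered by level within it (x axis); symbols give the annotated transcript end, and the 9 members with no count are drawn at 0.01. Hist1h1c at 82.2, Hist1h2bc at 31.0 and Hist1h4i at 25.2 FPKM stand above the other members, and Hist2h2be follows at 7.34 FPKM.

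The level went with the annotated 3′ end only in part. The 22 single-exon members whose model runs more than 100 bases past the stem-loop held 71.5% of the members' counts, with a median of 0.59 FPKM. Most of that share lay on 2 of them, Hist1h1c with 55.9% and Hist1h4i with 8.13% of the members' counts. The 22 single-exon members whose model ends within 100 bases of the stem-loop held 2.15%, with a median of 0.287 FPKM and a highest level of 1.76 FPKM in Hist1h4h. Of the 10 most abundant members, 4 belonged to the long models, 3 to the short ones, 1 was spliced, 1 had no stem-loop match and 1 had a model without untranslated regions. The last of these, Hist1h4k, and the other 10 members with coding-only models cannot be placed by their annotated ends, and reads in their untranslated regions could not be counted.

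The clusters differed as the leading genes did. The 54 Hist1 genes span chr13:21715763-23934851 and held 89.2% of the members' counts. The 10 Hist2 genes, at chr3:96219865-96270132, held 9.29%, most of it on Hist2h2be, and 6 of the 10 had no count. The 2 Hist3 genes at chr11:58948920-58956830 held 1.44%, and Hist4h4 at chr6:136801553-136804415 held 0.112%.

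No count in any library fell on 9 members, namely Hist1h2aa, Hist1h2an, Hist1h2ba, Hist2h2aa1, Hist2h2aa2, Hist2h2ab, Hist2h2bb, Hist2h3b and Hist2h3c1. With library totals of 11561955 to 17937501 counts, a count of 0 allows up to 3 counts per library, for counting error only. For 5 of the 9 (Hist2h2aa1, Hist2h2aa2, Hist2h2bb, Hist2h3b and Hist2h3c1) none of the 50-base windows of the transcript was unique among the annotated transcripts. The sources used here do not give how the authors' counting treated reads that map to several places, so on these genes an absent transcript and a lack of uniquely mapping reads cannot be told apart. Among the 29 tested members the unique share ran from 12.4% to 100%, with a median of 69.4%.

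The germ-line members were at or near zero. Hist1h2aa and Hist1h2ba, testis-specific H2A and H2B genes, had unique shares of 76.3% and 61.8% and no count. Hist1h1t, the testis-specific H1 gene, had 8 counts over 16 libraries. Of 6 other germ-line genes in a list 1 passed the filter, Prm1, a protamine of sperm chromatin, with 121 counts, while Tnp1, a sperm transition protein, had 0 counts.

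Named RNAs without a tail outside the histones were counted in few cases. Of 10 rows of the table for such RNAs 7 had no count. Rpph1, the RNA of RNase P, and Rmrp, the RNA of RNase MRP, were among these 7. Rn7sk, a nuclear RNA that restrains transcription elongation, averaged 1.85 ± 1.1 CPM in MSI tumours and 2.08 ± 1.40 CPM in CIN tumours (SD, n = 8 each). CPM here is counts per 1000000 with TMM scaling, a correction for differences in composition between libraries.

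The libraries differed widely in tissue content. The mean log2 CPM of 17 colon epithelium markers, called the colon epithelium score, ran from 2.55 to 9.04 over the 16 libraries. The score of 24 replication and S phase genes ran from 5.54 to 6.62. Skeletal muscle markers set 5 libraries apart with a score of at least 2: library 1 of MSI tumours with CIN micronuclei, both libraries of CIN tumours with MSI micronuclei, and library 2 of CIN tumours with MSI free DNA and with CIN free DNA. In bulk RNA, fewer cells of a type and less RNA per cell cannot be told apart. Counts on the members made up 116 to 381 per 1000000 of all counts.

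**Figure D2:**
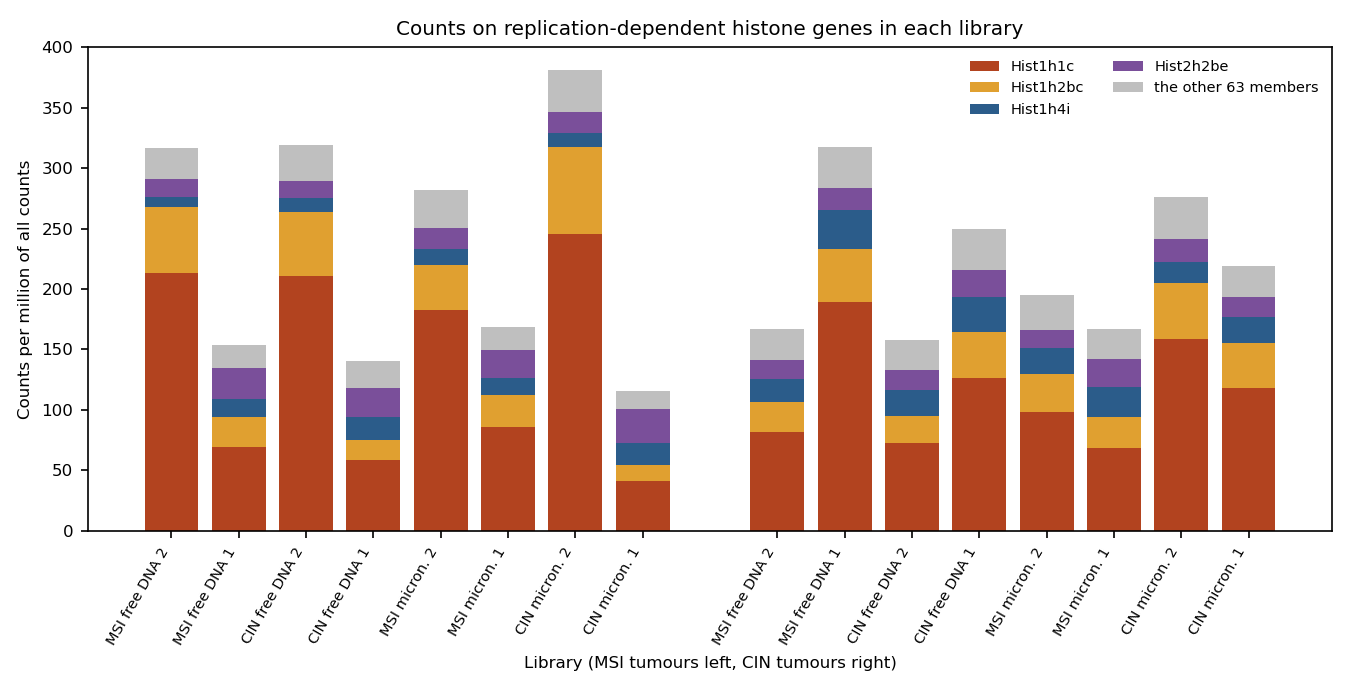
Counts on the members per 1000000 of all counts (y axis) in each of the 16 libraries (x axis, MSI tumours left, CIN tumours right), split into the 4 leading genes and the other 63. The sum runs from 116 to 381 per 1000000, and most of the difference between libraries is Hist1h1c.

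The tumour comparison asks whether histone transcripts differed between MSI and CIN tumours over all 4 kinds of DNA. Hist1h4i was lower in MSI tumours, and no other member passed the threshold. In MSI tumours its lowest, median and highest values over 8 libraries were 8.85, 13.1 and 18.7 CPM, against 17.4, 21.8 and 32.2 CPM over 8 libraries of CIN tumours. The 2 ranges overlapped between 17.4 and 18.7 CPM. Hist1h4i averaged 13.8 ± 3.43 CPM in MSI tumours and 23.5 ± 4.94 CPM in CIN tumours (SD, n = 8 each). The log2 fold change was -0.77 ± 0.18 (SE), with a Benjamini-Hochberg adjusted p of 0.0309 in edgeR's quasi-likelihood test over all 18777 genes.

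Taken within each replicate number, a split added after the data had been seen, Hist1h4i did not overlap between tumour types. Among libraries numbered 2 it was 8.85 to 12.8 CPM in MSI tumours and 17.4 to 22.0 CPM in CIN tumours, with a log2 fold change of -0.84 and an adjusted p of 0.0132 in edgeR. Among libraries numbered 1 it was 13.5 to 18.7 CPM in MSI tumours and 21.2 to 32.2 CPM in CIN tumours, with -0.73 and an adjusted p of 0.063. The shares of all genes that were apart or called in this split are not given here. The separation is therefore not shown to be particular to Hist1h4i. The call was lost in 12 of 16 fits that each left out 1 library, in which the log2 fold change stayed between -0.87 and -0.66 and the adjusted p between 0.02 and 0.0948. It held only without MSI tumour libraries 1 of CIN micronuclei, MSI free DNA or CIN free DNA, or CIN tumour library 2 of MSI free DNA.

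The call of 1 among 29 tested members, 3.45%, was below the 5.8% of all tested genes called in this comparison, 2.32% higher and 3.48% lower in MSI tumours. Unadjusted, 3 members and 22.1% of all genes had a p under 0.05, and the ranges of MSI and CIN tumours were apart in 0 members and 3.11% of all genes. The median log2 fold change of the 29 was -0.25, against 0.06 over all genes, and 13 of 29 were positive, against 55.7% of all genes. Of the other 7 tested H4 members 4 had negative and 3 positive log2 fold changes, and none of the 7 was called. Hist1h4k, the H4 gene next in level, averaged 0.554 ± 0.265 CPM in MSI tumours and 1.31 ± 0.479 CPM in CIN tumours (SD, n = 8 each). Its log2 fold change was -1.26 ± 0.35 with an adjusted p of 0.0597 in edgeR, which missed the threshold. Of its 50-base windows 28.5% were unique among the annotated transcripts, so its reads may be shared with other H4 genes.

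The other leading members did not differ between tumour types beyond their spread. Hist1h1c ranged from 41.4 to 254 CPM with a median of 131 CPM in MSI tumours, and from 70.3 to 188 CPM with a median of 107 CPM in CIN tumours. Hist1h2bc ranged from 13.3 to 75.4 CPM in MSI tumours and from 23.1 to 45.6 CPM in CIN tumours. Hist2h2be ranged from 14.3 to 28.4 CPM in MSI tumours and from 14.8 to 23.6 CPM in CIN tumours. In each of these genes the range of MSI tumours was the wider one and enclosed, on both sides, that of CIN tumours. The log2 fold changes were 0.32 ± 0.45 for Hist1h1c, 0.16 ± 0.38 for Hist1h2bc and 0.16 ± 0.18 for Hist2h2be, with adjusted p values of 0.673, 0.808 and 0.593 in edgeR.

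For Hist1h1c and Hist1h2bc this mean over both numbers joined estimates of opposite sign. The split by number was added after the data had been seen. Among libraries numbered 2, MSI tumours were higher in Hist1h1c by 1.11 on the log2 scale (adjusted p = 0.0114, edgeR) and in Hist1h2bc by 0.85 (adjusted p = 0.0273, edgeR). Among libraries numbered 1 the log2 fold changes were -0.99 and -0.91 and were not called. As the split was made on values already seen, its p values are no independent support. The share of all genes called in it is not given here. The test of the difference between the numbers, the tumour by replicate number interaction, gave 2.06 ± 0.48 for Hist1h1c and 1.73 ± 0.46 for Hist1h2bc, both with an adjusted p of 0.0751 in edgeR. It therefore missed the threshold, and no gene of the 18777 passed it (0% called).

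**Figure D3:**
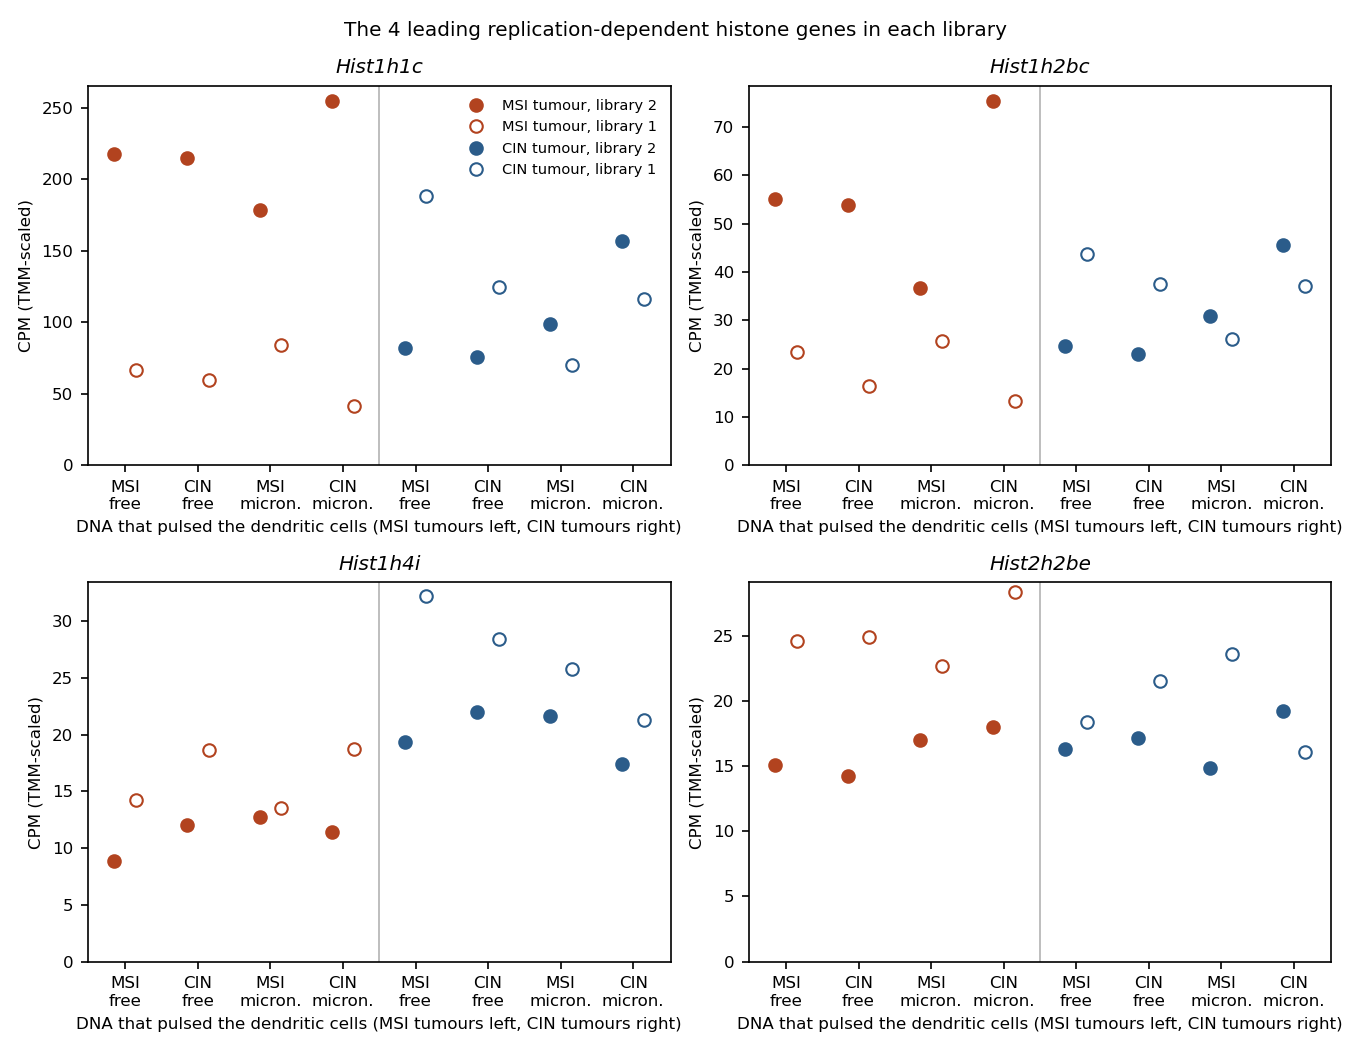
TMM-scaled CPM (y axis, from 0) of the 4 leading members in each library, by the DNA that pulsed the dendritic cells (x axis); MSI tumours stand left and CIN tumours right of the line, with library 2 filled and library 1 open. In MSI tumours every filled point lies above every open one for Hist1h1c and Hist1h2bc and below it for Hist1h4i and Hist2h2be.

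In the main fit the genes around the histones gave few calls between tumour types. Of 24 replication and S phase genes 2 (8.33%) were lower in MSI tumours and none higher. Rrm2, a subunit of ribonucleotide reductase, averaged 97.7 ± 20.6 CPM in MSI tumours and 151 ± 27.9 CPM in CIN tumours (SD, n = 8 each; log2 fold change -0.62 ± 0.15, adjusted p = 0.0347, edgeR). Mcm6, a subunit of the replicative helicase, averaged 224 ± 62.2 CPM in MSI tumours and 366 ± 72.4 CPM in CIN tumours (log2 fold change -0.70 ± 0.18, adjusted p = 0.0494, edgeR). Of 15 mitosis genes 1 was lower, Cenpf, a centromere protein, at -0.76 ± 0.19. Of 16 genes for histone mRNA transcription and 3′ end processing 1 was lower, Upf1, a helicase of histone mRNA decay, at -0.31 ± 0.08. The last 2 counts, 6.67% and 6.25%, were close to the 5.8% of all genes. In fits that left out 1 library the counts were 0 to 4 of 24, 0 to 2 of 15 and 0 to 3 of 16, and that of the S phase genes was 0 in 12 of 16 such fits. Over all 25 alternative fits the counts ran wider, at 0 to 12 of 24, 0 to 6 of 15 and 0 to 7 of 16. The few calls therefore depended on the fit.

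None of 12 histone chaperones and none of 11 replication-independent histone variants was called between tumour types in the main fit. Over the 25 alternative fits 0 to 5 and 0 to 4 were called. In each of these lists 4 genes had an unadjusted p under 0.05. H2afz, which encodes the H2A variant found at active promoters from a polyadenylated mRNA, averaged 310 ± 53.1 CPM in MSI tumours and 293 ± 37.0 CPM in CIN tumours (SD, n = 8 each). Of the 10 rows for RNAs without a tail 2 were tested, and Terc, the RNA of telomerase, was lower, at 0.197 ± 0.101 CPM in MSI tumours and 0.752 ± 0.361 CPM in CIN tumours (log2 fold change -1.82 ± 0.40, adjusted p = 0.0255, edgeR). Rn7sk was not called.

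Markers of other cells were mostly not called in this comparison. None of 17 colon epithelium, 10 smooth muscle, 12 skeletal muscle, 7 macrophage, 9 T cell, 8 B and plasma cell or 5 erythroid genes passed, and the 1 tested germ-line gene did not. For 2 of these lists the absence of calls depended on the fit. Over 25 alternative fits the colon epithelium count was 0 to 13 and moved in 2, and the smooth muscle count was 0 to 10 and moved in 1. Both stayed at 0 in fits that left out 1 library. Of 7 fibroblast genes 2 were lower in MSI tumours, Col1a1 (-1.39 ± 0.12) and Pdgfrb (-1.06 ± 0.23). All 17 colon epithelium genes had positive log2 fold changes, with a median of 1.02. The part of tissue content in the tumour difference of Hist1h4i was not tested as a cause; with the colon epithelium and skeletal muscle scores as covariates the log2 fold change was -0.83 with an adjusted p of 0.00507 in edgeR, and with the 5 muscle-rich libraries left out it was -0.94 with an adjusted p of 0.0988.

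The kind of DNA given with the dendritic cells moved no member past the threshold. The comparison of MSI DNA with CIN DNA called 0 of 29 members in edgeR, where 0% of all 18777 genes were called, and 0 members and 1.11% of all genes had an unadjusted p under 0.05. The comparison of free DNA with micronuclei also called 0 of 29 (0% of all genes), with 1 member and 0.788% of all genes at an unadjusted p under 0.05. The 3 interactions between tumour type, DNA source and DNA form called 0 members each (0% of all genes each), and the members at an unadjusted p under 0.05 were 1 for tumour by source (1.52% of all genes), 0 for tumour by form (0.847%) and 2 for source by form (1.89%). DESeq2 called 0 members in each of these 5 comparisons.

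The values show how close the groups lay. Hist1h1c averaged 123 ± 61.0 CPM with MSI DNA, compared with 130.3 ± 75.1 CPM with CIN DNA (SD, n = 8 each). Split by form, it averaged 129 ± 68.3 CPM with free DNA, compared with 125 ± 68.7 CPM with micronuclei. Its log2 fold changes were -0.09 ± 0.45 for the source and 0.06 ± 0.45 for the form, so that the standard error was several times the difference. Hist1h4i averaged 18.5 ± 7.75 CPM with MSI DNA and 18.7 ± 5.48 CPM with CIN DNA, and by form 19.5 ± 7.97 CPM with free DNA, compared with 17.8 ± 5.00 CPM with micronuclei. Its standard error in these comparisons, 0.18 on the log2 scale, was the smallest of the 4 leading members together with that of Hist2h2be. Low-count members were less precise: Hist1h2bn, an H2B gene named here because it had the 1 unadjusted p under 0.05 for the form (0.00693 in edgeR), had a log2 fold change of 1.92 ± 0.56 from 64 counts in 16 libraries.

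The replicate number in the titles separated the MSI tumour libraries more than any treatment did. Library 2 was higher than library 1 in Hist1h1c, Hist1h2bc, Hist1h2be and Hist1h1d, and lower in Hist2h2be and Hist1h4i. This comparison of libraries 2 with libraries 1 within the 4 MSI tumour groups called 4 members higher and 2 lower. The 6 of 29, 20.7%, is below the 31.5% of all genes called (13.4% higher, 18% lower), so the number of calls is no result about the members. The same holds at an unadjusted p under 0.05, with 8 members and 47.2% of all genes. The median log2 fold change of the 29 members was 1.02, against -0.09 over all genes, and 20 of 29 were positive, against 44.4% of all genes.

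Hist1h1c had, with MSI free DNA, CIN free DNA, MSI micronuclei and CIN micronuclei in that order, 218, 215, 178 and 254 CPM in libraries 2 of MSI tumours, against 66.6, 59.3, 84.3 and 41.4 CPM in libraries 1. All 4 libraries 2 lay above all 4 libraries 1. The means were 216 ± 31.1 CPM in libraries 2 and 62.9 ± 17.8 CPM in libraries 1 (SD, n = 4 each), a log2 fold change of 1.82 ± 0.35 with an adjusted p of 0.0114 in edgeR. In CIN tumours the same groups had 82.0, 75.5, 98.6 and 157 CPM in libraries 2, against 188, 124, 70.3 and 116 CPM in libraries 1. There the libraries interleaved, and the log2 fold change was -0.25 ± 0.34 with an adjusted p of 0.884 in edgeR.

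Hist1h2bc had, in the same order of DNA, 55.1, 53.8, 36.6 and 75.4 CPM in libraries 2 of MSI tumours, against 23.5, 16.4, 25.8 and 13.3 CPM in libraries 1. The ranges were apart, as for Hist1h1c, and library 1 of CIN micronuclei was lowest in both genes while library 2 of that group was highest in both. The log2 fold change was 1.49 ± 0.33 (adjusted p = 0.0159, edgeR). In CIN tumours Hist1h2bc had 24.8, 23.1, 30.9 and 45.6 CPM in libraries 2, against 43.8, 37.4, 26.0 and 37.0 CPM in libraries 1, and the log2 fold change was -0.24 ± 0.32.

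Among members of lower level, Hist1h2be and Hist1h1d took the same direction. Hist1h2be, an H2B gene whose model is spliced and extends 1861 bases past its stem-loop, had 2.41, 3.00, 2.85 and 4.28 CPM in libraries 2 of MSI tumours, against 1.59, 0.712, 0.741 and 1.12 CPM in libraries 1, with no overlap (log2 fold change 1.62 ± 0.40, adjusted p = 0.0178, edgeR). Exons of 2 other genes on the same strand overlap it, so some of its reads may belong to them. Hist1h1d, a linker histone gene, had 4.09, 3.33, 4.41 and 6.25 CPM in libraries 2 of MSI tumours, against 2.16, 0.841, 2.30 and 0.436 CPM in libraries 1. These ranges were also apart (log2 fold change 1.81 ± 0.55, adjusted p = 0.0359, edgeR). Its model is 7425 bases long, 4884 of them after the stem-loop.

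Hist2h2be and Hist1h4i went the other way. Hist2h2be had 15.1, 14.3, 17.0 and 18 CPM in libraries 2 of MSI tumours, against 24.6, 24.9, 22.7 and 28.4 CPM in libraries 1. Hist1h4i had 8.85, 12.1, 12.8 and 11.4 CPM in libraries 2 of MSI tumours, against 14.3, 18.6, 13.5 and 18.7 CPM in libraries 1. Both were lower in each library 2 than in every library 1. The log2 fold changes were -0.65 ± 0.15 for Hist2h2be (adjusted p = 0.0155) and -0.53 ± 0.14 for Hist1h4i (adjusted p = 0.025, both edgeR). Hist1h4i was also lower in library 2 of all 4 CIN tumour groups, at 19.3, 22.0, 21.6 and 17.4 CPM in libraries 2 against 32.2, 28.4, 25.7 and 21.2 CPM in libraries 1, with a log2 fold change of -0.41 ± 0.14 and an adjusted p of 0.465 in edgeR.

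The promoters of 3 of these members, 2 linker histone genes and an H4 gene, are given from RefSeq (GRCm38.p6), 250 bases before to 50 after the start. Capitals mark 3 motifs, each searched on both strands: the CCAAT box, the letters TATAAA of the TATA box, and AAACACA, a motif known from H1 promoters. The promoters lie at chr13:23738557-23738856 on the plus strand for Hist1h1c, at chr13:23554782-23555081 on the plus strand for Hist1h1d and at chr13:22041313-22041612 on the minus strand for Hist1h4i.
Hist1h1c: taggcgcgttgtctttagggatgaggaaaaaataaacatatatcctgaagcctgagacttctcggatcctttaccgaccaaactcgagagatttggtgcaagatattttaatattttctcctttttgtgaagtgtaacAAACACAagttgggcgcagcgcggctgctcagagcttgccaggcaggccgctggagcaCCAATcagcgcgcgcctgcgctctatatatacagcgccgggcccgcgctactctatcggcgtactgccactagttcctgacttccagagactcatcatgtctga
Hist1h1d: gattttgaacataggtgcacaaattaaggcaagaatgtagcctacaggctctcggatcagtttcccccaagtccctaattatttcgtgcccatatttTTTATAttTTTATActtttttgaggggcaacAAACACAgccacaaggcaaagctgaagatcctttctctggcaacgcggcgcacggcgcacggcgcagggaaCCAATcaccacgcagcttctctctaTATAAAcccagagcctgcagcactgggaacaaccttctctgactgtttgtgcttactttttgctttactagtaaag
Hist1h4i: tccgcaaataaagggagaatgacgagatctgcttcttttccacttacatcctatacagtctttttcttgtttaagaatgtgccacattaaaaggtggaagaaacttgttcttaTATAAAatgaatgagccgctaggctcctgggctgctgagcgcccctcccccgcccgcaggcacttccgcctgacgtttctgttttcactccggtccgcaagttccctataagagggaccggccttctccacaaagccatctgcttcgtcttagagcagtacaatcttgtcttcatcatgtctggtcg

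Hist1h1c held CCAAT and AAACACA, Hist1h1d all 3 motifs, and Hist1h4i TATAAA alone, here as letters in the window and not as sites shown to be used. The H1 genes Hist1h1b and Hist1h1e also held all 3. In MSI tumours Hist1h1e was higher in library 2 of each group. Hist1h1b was higher only with MSI micronuclei (log2 difference 1.64, against -0.82, -2.01 and -1.50 with MSI free DNA, CIN free DNA and CIN micronuclei). Hist1h4h held none of the 3, and 5 of 8 tested H4 members had positive log2 fold changes. A link between motifs and direction was not tested. The RefSeq start of Hist1h1d lies inside its longer GENCODE model. CCAAT occurred in 53 of 62 members matched to a RefSeq promoter (85.5%), against 37.9% of all 27025 promoters. All H1, H2A, H2B and H3 members with a promoter held it, against 3 of 12 H4 members. AAACACA was in 5 of 6 H1 members and in 7.14% of all promoters. TATAAA was in 56.5% of members and 14.2% of all promoters. ATTTGCAT, the octamer motif known from H2B promoters, was in 13 of 62 members (21%), all of them H2A or H2B genes, and in 1.75% of all promoters. Neighbouring H2A and H2B genes share promoters read in opposite directions, so these members are not independent. No promoter of Hist1h2bc or Hist2h2be was matched.

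**Figure D4:**
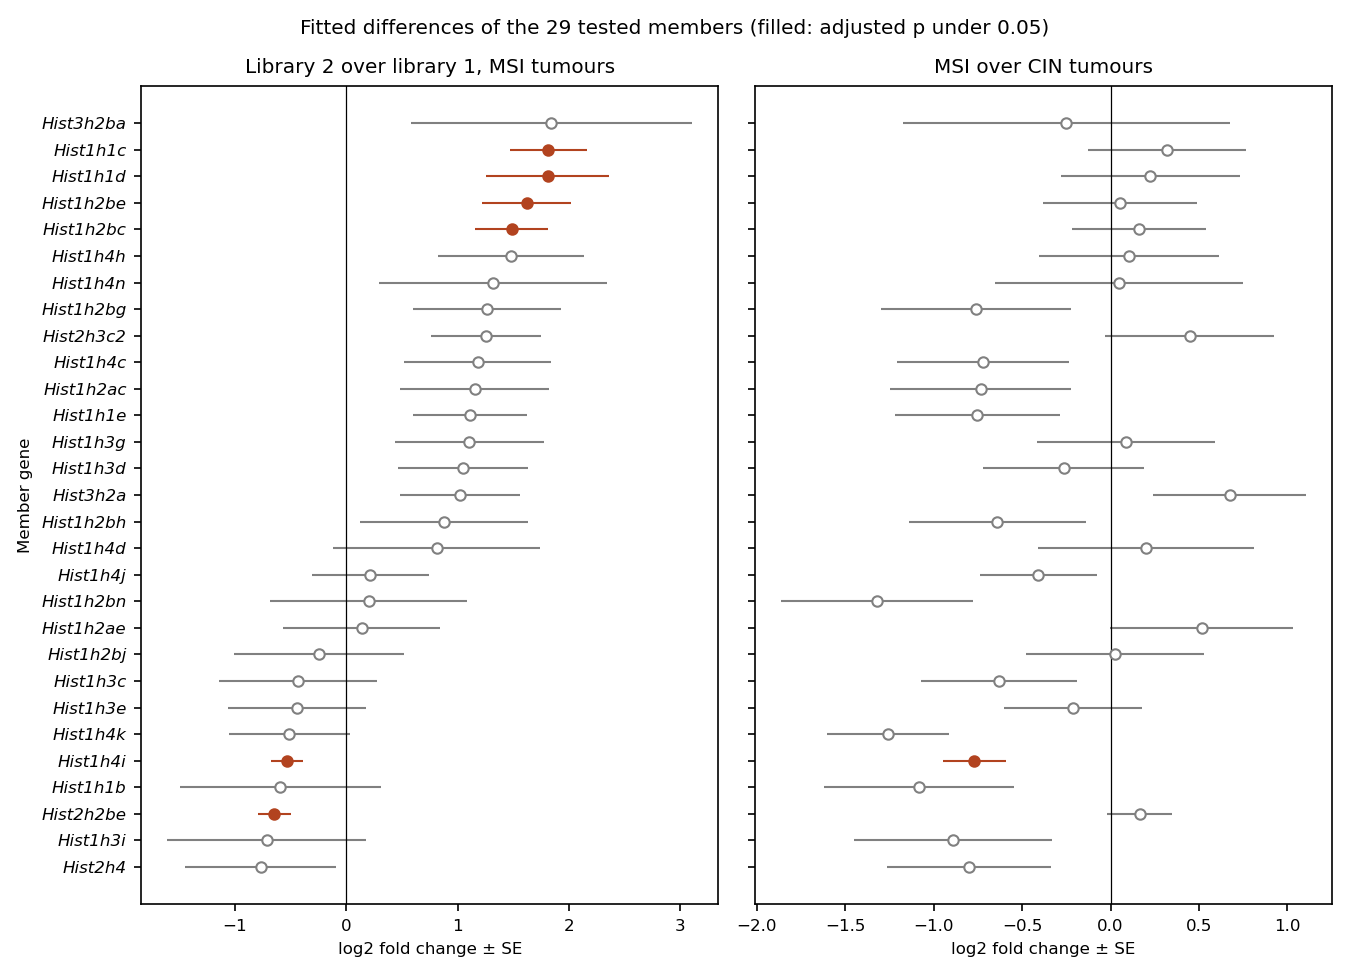
Log2 fold change (x axis, point) with its standard error (bar) for the 29 tested members (y axis), for library 2 over library 1 in MSI tumours on the left and MSI over CIN tumours on the right; filled points passed an adjusted p of 0.05 in edgeR. The median is 1.02 on the left and -0.25 on the right, and 6 and 1 members are filled.

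Summed counts on the members outside the 4 leading genes took the same direction in MSI tumours, without many calls. The other 63 members summed to 25.5 to 35.0 counts per 1000000 in libraries 2 of MSI tumours, against 14.8 to 21.7 in libraries 1, and to 24.9 to 34.1 in libraries 2 of CIN tumours, against 24.3 to 34.3 in libraries 1. The sums did not overlap in MSI tumours and overlapped fully in CIN tumours. Leaving out the 4 leading genes, the H1, H2A and H2B sums did not overlap between the numbers in MSI tumours, at 4.63 to 7.28, 6.05 to 7.31 and 6.71 to 9.72 counts per 1000000 in libraries 2, against 1.42 to 3.28, 3.03 to 5.22 and 2.53 to 5.46 in libraries 1. The H3 and H4 sums overlapped, at 3.55 to 5.66 and 4.28 to 5.83 counts per 1000000 in libraries 2, against 3.34 to 3.98 and 3.46 to 5.08 in libraries 1. The H1, H2A and H2B sums include Hist1h1d, Hist3h2a and Hist1h2be, each of them also apart on its own. Hist3h2a alone held 678 of the 1309 H2A counts over 16 libraries. Hist1h1d had 50 to 98 counts in libraries 2 and 7 to 30 in libraries 1 of MSI tumours. Sums without these genes are not given, so a shift in further members is not shown.

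Single members of several classes were apart between the numbers. Of the 29 tested, 7 were higher in every library 2 than in any library 1 of MSI tumours (Hist1h1c, Hist1h2bc, Hist1h1d, Hist3h2a, Hist1h2be, Hist1h4h and Hist2h3c2) and 2 were lower (Hist1h4i and Hist2h2be). Over all genes 21.3% were apart and higher and 19.5% apart and lower, 40.8% in all, so these counts are not particular to the members. Hist3h2a, an H2A gene, averaged 4.23 ± 0.363 CPM in libraries 2 and 2.16 ± 0.742 CPM in libraries 1, and Hist1h4h, an H4 gene, averaged 1.24 ± 0.338 CPM in libraries 2 and 0.494 ± 0.353 CPM in libraries 1 (SD, n = 4 each). Neither passed the test, at adjusted p values of 0.161 and 0.104 in edgeR. Of the other members among the 10 most abundant, Hist1h2bg had a log2 fold change of 1.26 ± 0.66, Hist1h4k -0.51 ± 0.54, Hist1h3c -0.43 ± 0.71 and Hist1h2bj -0.25 ± 0.76, and none passed the test.

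In CIN tumours the replicate number called no member and no gene (0% of all genes) in edgeR, with 3 members and 8.97% of all genes at an unadjusted p under 0.05 and 0 members called by DESeq2. Hist1h2bg and Hist1h1e, an H1 gene named for its values, were higher in every library 2 than in any library 1, which is 2 of 29 members, against 2.65% of all genes. Hist1h2bg had 1.95, 2.79, 2.47 and 2.30 CPM in libraries 2 of CIN tumours, against 1.27, 1.53, 1.15 and 1.2 CPM in libraries 1. Over both tumour types together no member was called (0% of all genes in edgeR; 4 members and 24.9% of all genes at an unadjusted p under 0.05, and 4 members called by DESeq2). The tumour by replicate number interaction also called none (0% of all genes in edgeR, with 7 members and 30.4% of all genes at an unadjusted p under 0.05, and 6 members called by DESeq2). The share of all genes called by DESeq2 is not given here.

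The calls between numbers in MSI tumours depended on single libraries. Leaving out 1 library of a group leaves the other 3 groups to give the difference. No member was called without library 1 or library 2 of CIN micronuclei or of CIN free DNA, 1 was called without library 1 of MSI free DNA (Hist1h2be) and 2 without its library 2 (Hist1h2be and Hist1h1c). Over these fits the log2 fold change of Hist1h1c stayed between 1.52 and 2.03 and its adjusted p between 0.00903 and 0.0587 in edgeR. With the colon epithelium and skeletal muscle scores as covariates, 2 members stayed called, Hist1h1c at 1.26 (adjusted p = 0.00951) and Hist1h2bc at 1.04 (adjusted p = 0.0208, both edgeR).

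Proliferation genes moved against the rising histone genes in the same libraries. Of 24 replication and S phase genes, 21 were lower in libraries 2 than in libraries 1 of MSI tumours and none was higher, with a median log2 fold change of -0.65. Cdc45, a helicase factor, averaged 55.6 CPM in libraries 2 and 106 CPM in libraries 1 (log2 fold change -0.92 ± 0.12, adjusted p = 0.00528, edgeR). Pcna, the sliding clamp of DNA polymerases, averaged 235 CPM in libraries 2 and 374 CPM in libraries 1 (-0.66 ± 0.13), and E2f1, a transcription factor of S phase genes, 48.7 CPM in libraries 2 and 89.0 CPM in libraries 1 (-0.88 ± 0.15). Of 15 mitosis genes 13 were lower, Birc5, a part of the chromosomal passenger complex, at -0.58 ± 0.11 and Tpx2, a spindle assembly factor, at -0.71 ± 0.13. Without library 1 or without library 2 of CIN micronuclei these counts were 9 of 24 and 4 of 15, and without any 1 library of MSI free DNA or CIN free DNA they were 7 to 11 of 24 and 3 to 5 of 15.

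Histone chaperones and genes for making histone mRNA mostly had negative log2 fold changes in these libraries, with more calls among the chaperones. Positive values were found in 0 of 12 chaperones and 1 of 16 genes for making histone mRNA, against 44.4% of all genes. The medians were -0.46 and -0.25. Of 12 histone chaperones 11 were lower in libraries 2 of MSI tumours, among them Chaf1a, a subunit of the assembly factor CAF-1, at -0.77 ± 0.15, and Asf1b, a chaperone of H3 and H4, at -0.58 ± 0.13. Of 16 genes for histone mRNA transcription and 3′ end processing 4 (25%) were lower and none higher, close to the 18% of all genes that were lower. These were Sympk, the scaffold of the cleavage complex (-0.52 ± 0.11), Cdk2 (-0.47 ± 0.12), Slbp itself (-0.38 ± 0.10) and Eri1, an exonuclease of histone mRNA (-0.58 ± 0.16). Slbp also belongs to the list of replication and S phase genes. Of 11 replication-independent histone variants 6 were lower and 1 higher. H1fx, a linker variant, averaged 8.87 CPM in libraries 2 and 22.4 CPM in libraries 1 (-1.32 ± 0.19), and H1f0, the linker variant of resting cells, 417 CPM in libraries 2 and 572 CPM in libraries 1 (-0.44 ± 0.11). The linker genes divided, with Hist1h1c and Hist1h1d higher and H1fx and H1f0 lower in the same libraries. Without any 1 library of CIN micronuclei, MSI free DNA or CIN free DNA the counts were 2 to 3 of 12, 1 to 2 of 16 and 2 to 3 of 11, and without a library of MSI micronuclei 7 of the 16 processing genes were called.

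Scores of colon epithelium and smooth muscle genes also separated the same libraries. The colon epithelium score was 8.33 to 9.04 in libraries 2 of MSI tumours, against 4.63 to 7.41 in libraries 1, and all 17 of its genes had positive log2 fold changes, with a median of 2.67. None of the 17 passed the test, the lowest adjusted p being 0.0566 for Car1, a carbonic anhydrase of colonocytes, in edgeR. The smooth muscle score was 7.0 to 8.29 in libraries 2 and 4.70 to 6.12 in libraries 1, and 4 of its 10 genes were higher, Smtn, Tagln, Mylk and Lmod1. These counts became 15 of 17 and 10 of 10 without either library of CIN tumours with MSI micronuclei, which enter through the shared estimate of the spread, and the smooth muscle count was 1 to 4 without any 1 of the other libraries. Of 7 macrophage genes 5 were lower, C1qa at -0.70 ± 0.09 first among them, and of 7 fibroblast genes 2 were higher, Col1a1 and Col1a2, where 13.4% of all genes were higher. Only 3 of these 7 had positive log2 fold changes, and their median was -0.07. No gene of the skeletal muscle (12 tested), T cell (9), B and plasma cell (8), erythroid (5) or germ-line (1) lists and neither tested RNA without a tail was called.

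Some measures of RNA without a tail, and that of mitochondrial RNA, differed too. Counts on small nuclear RNA genes were 13.7 to 19.4 per 1000000 in libraries 2 of MSI tumours, against 20.8 to 23.8 in libraries 1, and counts on small nucleolar RNA genes 59.9 to 84.7 against 90.5 to 91.8. Both were lower in the libraries in which Hist1h1c was higher. Counts on rRNA genes overlapped, at 230 to 893 per 1000000 in libraries 2 of MSI tumours, against 545 to 1181 in libraries 1. Mitochondrial genes took 2.29% to 3.68% of all counts in libraries 2 and 1.43% to 1.71% in libraries 1. The part of tissue content, cell cycle and RNA without a tail in the difference between libraries was not tested.

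Across all 16 libraries Hist1h1c and Hist1h2bc followed the colon epithelium score and ran against the S phase score. These relations were computed after the values had been seen, 8 in all (4 genes by 2 scores), on log2 CPM. For Hist1h1c and the colon epithelium score Pearson's r was 0.809 (permutation p = 7e-05, adjusted 0.000187) and Spearman's rho 0.903 (permutation p = 3e-05), with n = 16. Without the 2 libraries farthest from the median score r was 0.922. Within MSI tumours r was 0.954 (n = 8) and within CIN tumours 0.724 (exact permutation p = 0.0183, n = 8). Permuting libraries takes no account of the replicate number, by which both Hist1h1c and the score were fully apart in MSI tumours, so no p is given within MSI tumours and those over 16 libraries leave the number out of account. After the mean of each tumour type and replicate number was taken out, r over 16 libraries was 0.865 for Hist1h1c and 0.752 for Hist1h2bc with the colon epithelium score, and -0.927 and -0.921 with the S phase score.

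Hist1h1c and the S phase score had r = -0.896 (permutation p = 1e-05, the smallest that 100000 permutations can give, adjusted 8e-05) and rho = -0.877 (permutation p = 2e-05). Without the 2 farthest libraries r was -0.851, within MSI tumours it was -0.98 (n = 8) and within CIN tumours -0.868 (exact permutation p = 0.00327, n = 8). Hist1h2bc behaved alike, with r = 0.754 for the colon epithelium score (permutation p = 0.00063, adjusted 0.00126; rho = 0.85, permutation p = 0.00011; 0.926 without the 2 farthest libraries) and r = -0.866 for the S phase score (permutation p = 2e-05, adjusted 8e-05; rho = -0.838, permutation p = 9e-05; -0.791 without them). In Hist1h2bc the values within CIN tumours were 0.615 (exact permutation p = 0.0561, n = 8) and -0.842 (exact permutation p = 0.00409, n = 8). One library, library 1 of CIN tumours with MSI micronuclei, had the lowest colon epithelium score, 2.55, with a Hist1h1c level of 70.3 CPM that was above 3 libraries of higher score.

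**Figure D5:**
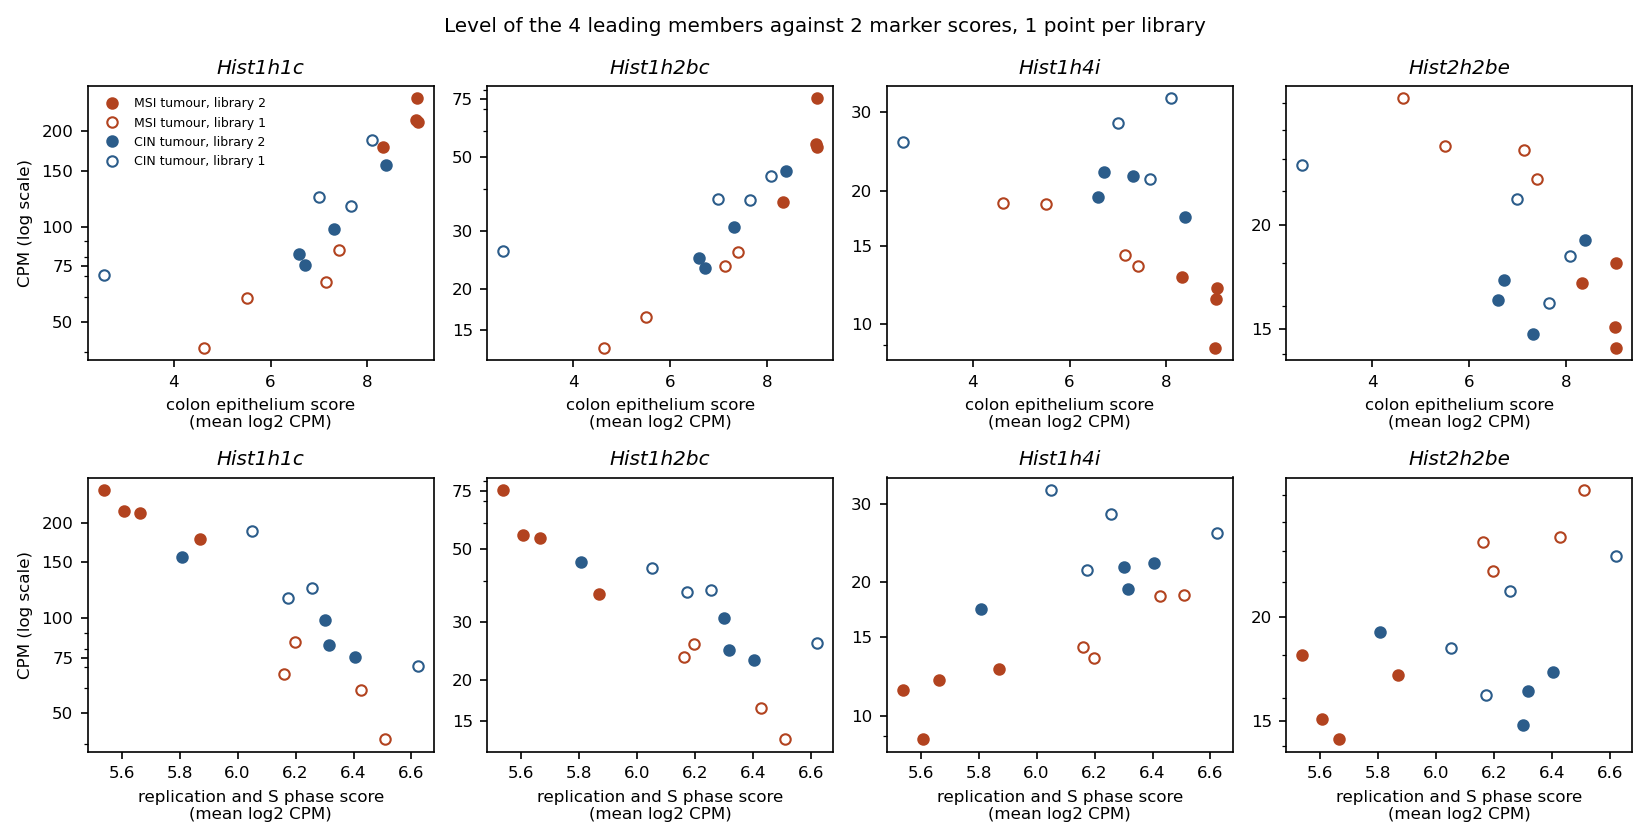
Level of the 4 leading members (CPM, log scale, y axis) against the colon epithelium score (top) and the replication and S phase score (bottom), both mean log2 CPM (x axis), with 1 point per library, MSI tumours in red, CIN tumours in blue, library 2 filled and library 1 open. Hist1h1c rises with the first score (r = 0.809) and falls with the second (r = -0.896), and Hist1h4i shows the opposite signs (r = -0.515 and 0.685).

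Hist1h4i and Hist2h2be had the opposite signs. For Hist1h4i r was -0.515 with the colon epithelium score (permutation p = 0.0401, adjusted 0.0401; rho = -0.603, permutation p = 0.0154; -0.531 without the 2 farthest libraries) and 0.685 with the S phase score (permutation p = 0.00354, adjusted 0.00491; rho = 0.641, permutation p = 0.00877; 0.497 without them). Within MSI tumours these were -0.919 and 0.909 (n = 8), and within CIN tumours -0.194 and 0.242 (exact permutation p = 0.654 and 0.573, n = 8). The relation was thus not detected within CIN tumours, where 8 libraries are too few to exclude it. For Hist2h2be r was -0.662 with the colon epithelium score (permutation p = 0.00368, adjusted 0.00491; rho = -0.6, permutation p = 0.0162; -0.542 without the 2 farthest libraries) and 0.556 with the S phase score (permutation p = 0.0267, adjusted 0.0305; rho = 0.482, permutation p = 0.0608; 0.532 without them). Its values within CIN tumours were -0.582 and 0.209 (exact permutation p = 0.127 and 0.625, n = 8), and within MSI tumours -0.912 and 0.918 (n = 8). With the mean of each tumour type and replicate number taken out, r was smaller in both genes: -0.256 and 0.415 for Hist1h4i and -0.558 and 0.232 for Hist2h2be, with the colon epithelium score first. The scores share libraries with the members and move against each other, so the relations to the 2 scores cannot be told apart.

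Members differed in how far the 2 libraries of a group lay apart. The 3 with the largest mean difference between the 2 libraries of a group were Hist3h2ba at 2.40, Hist1h2bp at 2.27 and Hist1h2bm at 2.26 on the log2 scale, from 96, 38 and 49 counts in 16 libraries. The same measure was 0.47 for Hist1h4i and 0.50 for Hist2h2be, against 1.26 for Hist1h1c and 1.00 for Hist1h2bc, genes with more counts than either.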

How the data were processed

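The unit of the main measurement is the read count per gene. The authors trimmed reads with fastp, aligned them with HISAT2 2.0.5 and counted them with featureCounts 1.5.0-p3, per the submitters' processing notes, which name build GRCm39. The gene coordinates deposited in the table are those of GRCm38, identical to GENCODE M21 for 53499 of 54409 shared genes and for all 67 members, and GRCm38 is used throughout. The deposited FPKM values equal these counts divided by exon length and by a library total somewhat above the sum of the counts. Read length, strand setting and the treatment of reads that map to several places are not given in the sources used here. The labels' protocol describes strand-specific and unstranded libraries without saying which was made, and 21 members, 3 of them tested, overlap an exon on the other strand. Columns of 4 samples with no label here were not used.

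Library totals were 11561955 to 17937501 counts, and values of few counts carry counting error beside the spread between libraries. Groups came from the titles. The counts were tested with edgeR 4.0.16 (quasi-likelihood, robust, TMM scaling, filterByExpr, R 4.3.3) on all 18777 genes kept, with Benjamini-Hochberg adjustment at 0.05 and a common biological coefficient of variation of 0.43. One fit with a mean per group gave tumour, source, form and their interactions, and a fit with a term for the replicate number in each tumour type gave the differences between libraries 2 and 1. CPM is counts per 1000000 with TMM scaling, and scores are mean log2 CPM with a prior count of 0.5. The fit was checked on simulated data. Outside the genes set to change, the simulated counts were drawn independently around a fixed mean per gene. They held no other shift shared between libraries and no differences in tissue content, so the check does not cover these. In each group libraries 1 and 2 differed beyond sampling noise (chi-square per degree of freedom 19.9 to 221).

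The genes named are the 10 members of highest mean FPKM, the members called in a comparison, 3 germ-line members, 3 members known for polyadenylated transcripts, the 3 that differ most between the libraries of a group, and up to 4 called genes of each list. The members and lists were chosen with earlier results of these data known. Alternatives were DESeq2 1.42.0, its size factors, no filter, the replicate number as a block, tissue scores as covariates, the 5 libraries rich in skeletal muscle transcripts left out, each library left out, and, added after seeing the data, each replicate number alone.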

Additional observations from a re-analysis of the deposited data

Results flagged for a closer look

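For the 10 most abundant members, Hist1h2be and Hist1h1d, 72 sets of 4 or 8 libraries of 1 tumour type were checked for a library far from the rest, and 1 set gave one; chance flags about 5% of such sets. Hist1h1d had 4.78 CPM in library 2 of CIN tumours with CIN micronuclei, against 1.98 CPM in the next of the 4 CIN tumour libraries numbered 2, a gap of 0.832 of their whole range. In the same library Hist1h1c was at 157 CPM and Hist1h2bc at 45.6 CPM, the highest values of the 4 libraries for both genes.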

How the results depend on the processing

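The number of members called was 0 under each of 25 alternatives for DNA source, DNA form and their 3 interactions, and under each of 21 for the replicate number in CIN tumours. Counts under the alternatives are given without the share of all genes called in the same fit. They show how the calls moved and do not set the members against other genes. Between tumour types, with 1 member called, DESeq2 called 2, the replicate term within each tumour type 2 (Hist1h4i and Hist1h4k), an additive model that leaves out the 5 muscle-rich libraries 0, libraries numbered 1 alone 0 and libraries numbered 2 alone 4, while leaving out single libraries gave 0 to 1. For the replicate number over both tumour types, with 0 called, DESeq2 called 4 and the model without the muscle-rich libraries 3. In MSI tumours, with 6 called, DESeq2 called 9, the tissue covariates left 2, and leaving out single libraries gave 0 to 6. For the tumour by replicate number interaction, with 0 called, DESeq2 called 6, the covariates 2, and leaving out single libraries gave 0 to 4 (4 without either library of MSI tumours with MSI micronuclei, 2 without library 2 of CIN tumours with MSI micronuclei). The log2 fold change of Hist1h1c between tumour types was -0.37 with the covariates, -0.14 to 0.51 over single libraries left out and -0.99 in libraries numbered 1. That of Hist1h2bc was -0.00118 with the replicate block, -0.0085 with the block within each tumour type, -0.46 with the covariates, -0.91 in libraries numbered 1 and -0.27 to 0.35 over single libraries left out. That of Hist2h2be was -0.074 in libraries numbered 2. The interaction of Hist1h4i with the replicate number was 0.17 without the muscle-rich libraries and -0.30 to 0.058 over single libraries left out. The cause of these changes was not tested. Same-numbered libraries did not deviate together throughout: their deviations correlated at -0.48 to 0.739 over 28 pairs of groups, over 0.1 in 16. Within MSI tumours all 6 pairs were over 0.1 (0.304 to 0.739), and within CIN tumours 2 of 6 were (-0.27 to 0.331). The replicate block left 1 member called between tumour types. Members with few counts could not be tested at this depth, and 38 of 67 were left out for that reason.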
